A study of Homo sapiens with 26 samples.

Results

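The genes described here are 38 genes of homologous recombination, the Fanconi anaemia pathway and the DNA damage checkpoint. They were chosen by symbol for their known function, with earlier results of these data known. They are 38 of the 12239 gene symbols that appear in at least 1 of 3 tables of normalized expression values, and all 38 were present and tested in each table. The study asked what happens to gene expression when proteins placed in nuclear speckles, the nuclear bodies rich in splicing and export factors, are depleted. RNA was measured in 786-O, an established human cell line of clear cell kidney cancer without functional VHL. Poly(A) RNA was isolated, made into directional libraries and read as paired ends of 42 bases.

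Each knockdown group held 2 libraries of 786-O cells given a single siRNA with the reagent DharmaFECT 1. Cells were moved to fresh medium at 24 h and harvested at 48 h after transfection. SART1, a splicing factor of the tri-snRNP, was targeted by siRNA 4 and siRNA 6. DDX39A, an RNA helicase of mRNA export, was targeted by siRNA 1 and siRNA 4, and SARNP, a partner of the export machinery, by siRNA 3 and siRNA 9. FIBP, an intracellular protein that binds the growth factor FGF1, was targeted by siRNA 6 and siRNA 7, and TMEM259 (membralin), which sits in the endoplasmic reticulum membrane, by siRNA 5 and siRNA 6. Some labels misspell SARNP ("SARPN") and FIBP ("FIPB") or use the older name C19orf6 for TMEM259, and were read as those genes. Control cells of the same line received a non-targeting siRNA, titled NTC in 1 table and NEGsiRNA in the other tables, and 2 such libraries stood in each of 3 tables, for SART1, for DDX39A with SARNP, and for FIBP with TMEM259. The same 2 control libraries therefore served both siRNAs of each target and, where a table holds a pair of targets, both of those. Separate cultures for the paired libraries are not stated in the labels, so p-values measure only the spread between these libraries, which may be technical.

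Homologous recombination repairs a broken chromosome by copying the intact sister. The MRN complex and RBBP8 (CtIP) start to trim the broken ends, EXO1 extends the trimming, and BRCA1 with BARD1, PALB2 and BRCA2 then prepares the trimmed strand to invade the sister, with help from XRCC2, XRCC3 and RAD51C. The Fanconi core complex attaches ubiquitin to FANCD2 and FANCI at DNA crosslinks, and the kinases ATM and ATR halt the cell cycle through CHEK2 and CHEK1 until repair is complete. Many of these genes are transcribed in step with the S and G2 phases of the cell cycle.

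Libraries held 21710821 to 26128173 reads on genes in the table for SART1, 9959064 to 18086176 in that for DDX39A with SARNP, and 8966609 to 17018483 in that for FIBP with TMEM259. The targeted mRNA was at 33.3% and 26.8% of control with the SART1 siRNAs, at 14% and 16.5% with those of DDX39A, at 13.5% and 8.48% with those of SARNP, at 11% and 17.1% with those of FIBP, and at 30.3% and 48.3% with those of TMEM259. The renal lineage gene PAX8 had normalized signals of 1869 to 3042 in control libraries, and the mesenchymal gene VIM 59229 to 156129, while the epithelial gene EPCAM stood at 52.3 to 107. Among the 38 genes, MDC1 had the fewest reads, down to 9 in a library. Values below are normalized signal, that is reads divided by the size factor of a library, and a change is the log2 difference of an siRNA from its own table's controls with its SE. In bulk RNA, a smaller share of cells in a cell cycle phase and less mRNA per cell cannot be told apart.

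The promoters of 4 genes are printed because these genes are among those with the main falls described below. BRCA1, BLM and FANCI were lower with both siRNAs of 3 targets, but no RefSeq promoter was found for FANCI. XRCC3 and FANCL fell most with SART1 knockdown. The set was chosen after the expression values were seen. Each sequence runs 5′ to 3′ on the strand of its gene, from 250 bases before to 50 bases after the start of transcription in RefSeq (build GRCh38.p14). Capitals mark CCAAT, the letters bound by NF-Y at many cell cycle promoters, or ATTGG where the motif lies on the opposite strand.
BRCA1 promoter, chr17:43125315-43125614, minus strand: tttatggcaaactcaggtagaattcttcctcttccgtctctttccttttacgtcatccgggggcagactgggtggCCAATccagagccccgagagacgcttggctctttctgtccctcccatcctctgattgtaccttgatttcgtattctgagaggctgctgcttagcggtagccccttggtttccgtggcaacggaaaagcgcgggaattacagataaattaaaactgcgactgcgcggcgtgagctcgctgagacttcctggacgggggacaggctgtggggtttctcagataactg
BLM promoter, chr15:90717096-90717395, plus strand: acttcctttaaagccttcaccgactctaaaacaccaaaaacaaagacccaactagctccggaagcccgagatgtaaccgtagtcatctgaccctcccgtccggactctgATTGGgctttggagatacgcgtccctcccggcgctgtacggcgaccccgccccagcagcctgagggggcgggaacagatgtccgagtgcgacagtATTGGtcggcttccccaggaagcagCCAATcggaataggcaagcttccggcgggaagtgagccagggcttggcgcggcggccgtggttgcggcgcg
XRCC3 promoter, chr14:103715402-103715701, minus strand: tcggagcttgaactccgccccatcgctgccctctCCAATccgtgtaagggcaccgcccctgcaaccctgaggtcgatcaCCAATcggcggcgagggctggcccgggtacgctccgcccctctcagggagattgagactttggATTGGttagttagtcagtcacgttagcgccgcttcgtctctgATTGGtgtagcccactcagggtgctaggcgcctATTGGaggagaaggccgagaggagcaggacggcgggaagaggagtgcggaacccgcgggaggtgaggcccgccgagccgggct
FANCL promoter, chr2:58241276-58241575, minus strand: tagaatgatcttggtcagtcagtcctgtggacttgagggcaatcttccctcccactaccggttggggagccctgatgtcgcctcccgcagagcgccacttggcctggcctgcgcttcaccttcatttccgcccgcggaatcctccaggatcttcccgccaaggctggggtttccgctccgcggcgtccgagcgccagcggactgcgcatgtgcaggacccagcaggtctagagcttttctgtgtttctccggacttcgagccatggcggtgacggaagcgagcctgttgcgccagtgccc
BRCA1 has 2 start windows in RefSeq, and the one shown lies within 100 bases of 8 of the gene's 10 annotated transcript starts in GENCODE. The window of XRCC3 held 5 matches, that of BLM 3, that of BRCA1 1 and that of FANCL 0. Windows were found for 35 of the 38 genes, all but FANCI, NBN and WRN, and numbered 48 in all. CCAAT, read on both strands, was in 52.1% of these 48 windows, against 34.8% of the 13760 windows of all genes in the tables and 34.6% of all 35116 windows. The E2F letters TTTCCCGC or TTTGGCGC, on both strands, were in 6.25% of the 48 windows (XRCC2, FANCC and FANCD2), against 3.44% of the table genes' windows and 2.27% of all windows. The CHR letters TTTGAA were in 12.5%, against 10.5% and 15.2%. None of these motifs contains another, though neighbouring matches can share letters. A match describes the letters only.

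Both SART1 siRNAs lowered XRCC3, FANCL, FANCE, XRCC2, FANCA, BRCA1, EXO1, FANCG, FANCI and RBBP8, and raised RAD50, RAD51AP1, RNF168, TOPBP1 and CHEK1. With SART1 siRNA 4, 13 of 38 genes fell, against 28.2% of all 11823 genes tested, and 8 rose, against 29.5% of all genes (called throughout at an adjusted p below 0.05 in limma). With SART1 siRNA 6, 14 fell, against 30.5% of all genes, and 8 rose, against 32.5%. Both siRNAs lowered 10 of the 38, against 20% of all genes, and both raised 5, against 22.9% of all genes.

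The 2 DDX39A siRNAs gave unequal counts, and FANCM, EXO1, BLM and BRCA1 fell with both while NBN rose. DDX39A siRNA 1 lowered 6 of 38, against 16.1% of the 11673 genes tested, and raised 3, against 17.1%. DDX39A siRNA 4 lowered 19 of 38, against 23.7% of all genes, and raised 3, against 25.3%. The median change of the 38 was -0.20 with siRNA 4, where 33 of 38 lay below 0, and -0.03 with siRNA 1, while the median of all genes was 0.00 with both. Both siRNAs lowered 4, against 6.37% of all genes, and raised 1, against 8.67%.

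Both SARNP siRNAs lowered FANCI and raised RAD51C, and both FIBP siRNAs lowered BRIP1, BLM, BRCA1 and FANCI. SARNP siRNA 3 lowered 5 of 38, against 21% of all genes, and raised 7, against 20.3%. With SARNP siRNA 9, 12 were lower, against 29.4%, and 4 higher, against 29%. In all, 1 gene was lower with both (7.15% of all genes) and 1 higher with both (7.17%). FIBP siRNA 6 lowered 4, against 11.82% of 11768 genes, and raised 7, against 10.78%, while FIBP siRNA 7 lowered 11, against 17.5%, and raised 3, against 16.6%. Both FIBP siRNAs lowered 4, against 4.39% of all genes, and raised 0, against 4.68% (0 also at an unadjusted p under 0.05, in edgeR and in DESeq2).

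TMEM259 knockdown lowered BLM with both siRNAs. TMEM259 siRNA 5 lowered 6 of 38, against 12% of all genes, and siRNA 6 lowered 3, against 10%. Neither TMEM259 siRNA raised any of the 38 in limma, against 10.83% with siRNA 5 and 9.36% with siRNA 6 of all genes. At an unadjusted p under 0.05, 3 were higher with siRNA 5 and 1 with siRNA 6, and edgeR and DESeq2 each called 0 with either. The count lower with both siRNAs was 1, against 2.41% of all genes, and 0 were higher with both, against 2.56% (0 at an unadjusted p under 0.05, in edgeR and in DESeq2).

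**Figure D1:**
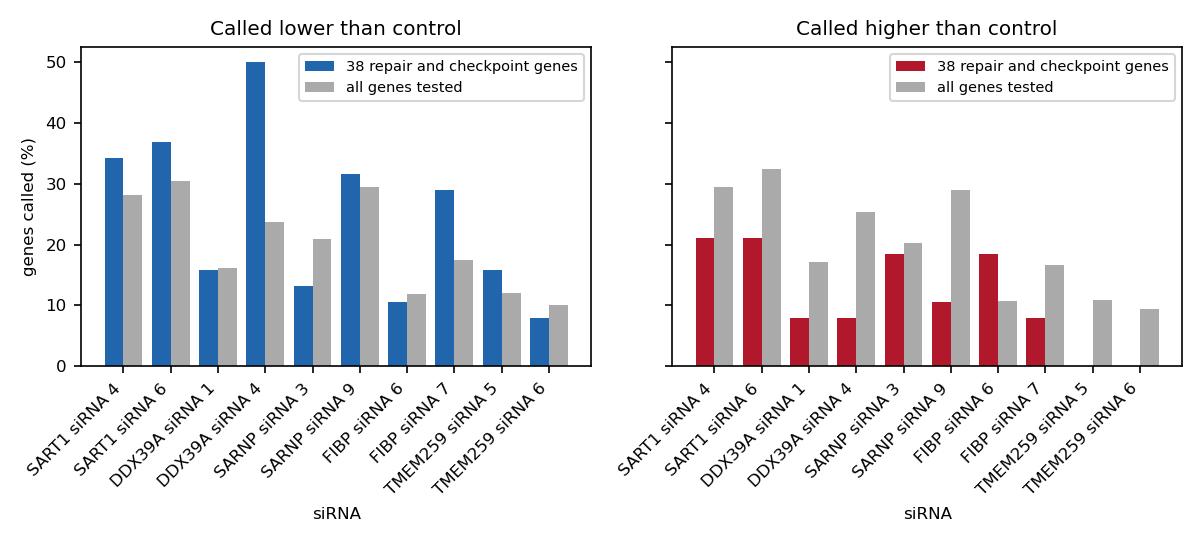
Share of genes called lower (left) and higher (right) than control with each of 10 siRNAs, as a percentage of the 38 repair and checkpoint genes (coloured bars) and of all genes tested (grey bars). DDX39A siRNA 4 lowered 19 of 38, and neither TMEM259 siRNA raised any.

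**Figure D2:**
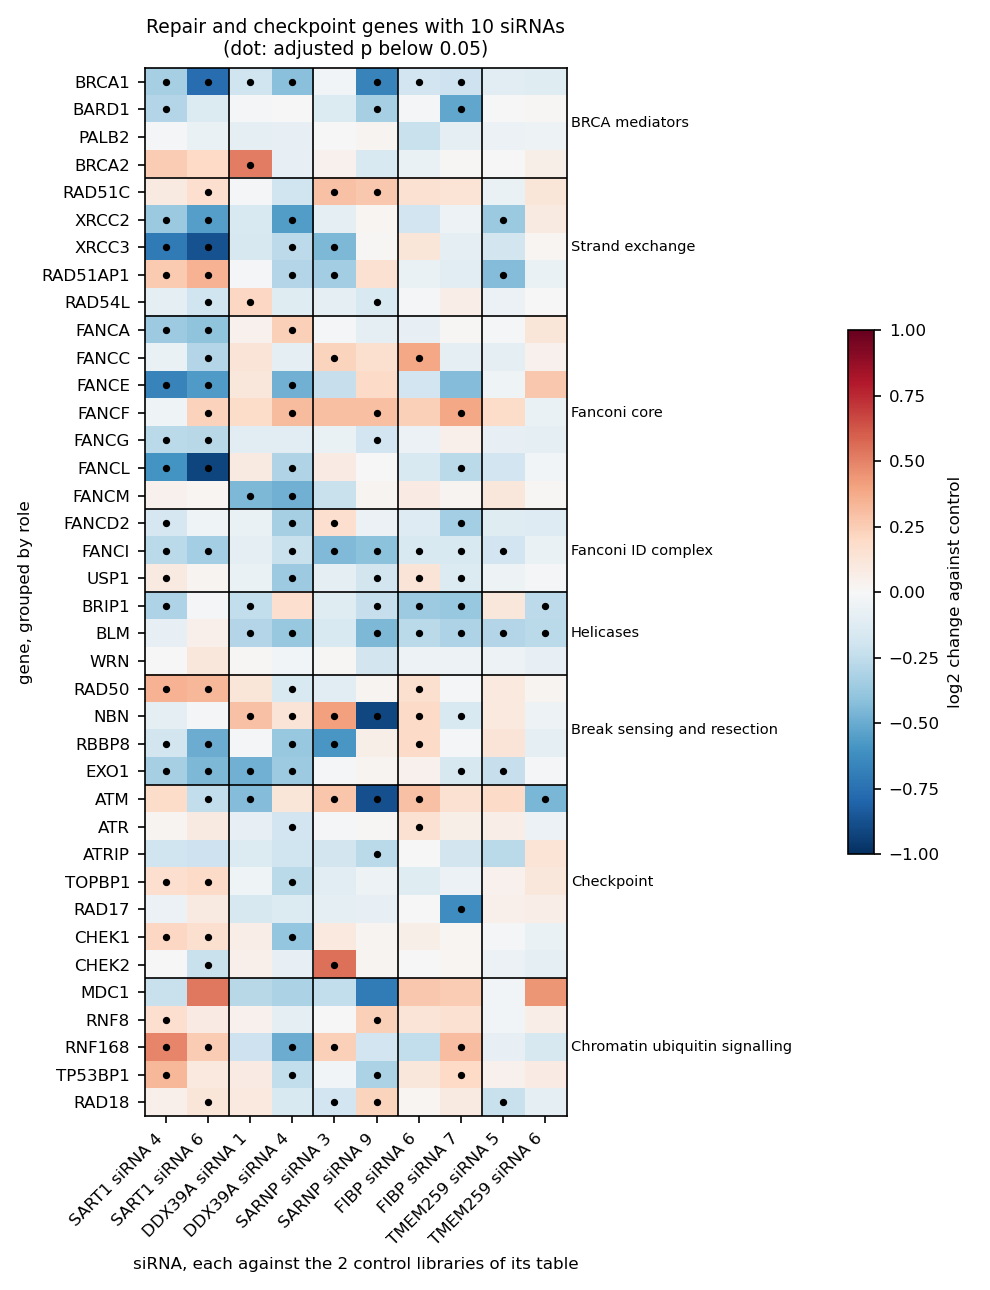
Log2 change of each of the 38 genes (rows, grouped by role) with each of 10 siRNAs (columns) against the 2 control libraries of its table, with dots on changes at an adjusted p below 0.05. FANCI, BRCA1 and BLM carry dots on blue cells with 8, 7 and 7 siRNAs, while PALB2, WRN and MDC1 carry none.

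Across the 10 siRNAs, FANCI was lower with 8, BRCA1 and BLM with 7 each, and BRIP1 and EXO1 with 6 each. Of the 11486 genes tested in all 3 tables, 4.93% were lower with at least 6 siRNAs, 2.26% with at least 7 and 0.801% with at least 8. None of the 38 was higher with more than 4 siRNAs, against 1352 of those 11486 genes. The siRNAs of a table share their controls, so these counts are a description. Changes of PALB2, the bridge between BRCA1 and BRCA2, of the RecQ helicase WRN and of MDC1, the reader of phosphorylated H2AX, passed the test with no siRNA, in limma. PALB2 lay between -0.22 and 0.03, and WRN between -0.18 and 0.11.

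BRCA1, the ubiquitin ligase and scaffold at the start of recombination, fell with both siRNAs of SART1, DDX39A and FIBP. It stood at 2348 and 2188 with SART1 siRNA 4 and 1655 and 1701 with siRNA 6, against 2882 and 2811 in control cells. Every knockdown library was below both controls, and the siRNA 6 libraries were lowest. The changes were -0.33 (SE 0.04, adjusted p = 1.1e-06) and -0.76 (SE 0.04, adjusted p = 9.1e-13), and the siRNAs differed by 0.43 (SE 0.04, adjusted p = 4.1e-08).

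With DDX39A, BRCA1 stood at 1260 and 1361 for siRNA 1 and 1145 and 1100 for siRNA 4, against 1467 and 1538 in controls. The changes were -0.20 (SE 0.06, adjusted p = 0.0072) and -0.42 (SE 0.06, adjusted p = 1.3e-07), again with a difference between the siRNAs (0.22, adjusted p = 0.0015). The call with siRNA 1 was lost without control replicate 2 (adjusted p = 0.1) or without its own replicate 1 (0.13). SARNP siRNA 9 gave 914 and 978, the lowest BRCA1 values of that table, while siRNA 3 gave 1551 and 1400, one library above and one below the controls. The SARNP changes were -0.67 (SE 0.06, adjusted p = 1.7e-12) with siRNA 9 and -0.03 with siRNA 3, where the test was not passed.

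FIBP siRNA 6 gave BRCA1 signals of 1379 and 1260 and siRNA 7 of 1258 and 1347, against 1502 and 1513 in controls, with no overlap. The changes were -0.19 (SE 0.05, adjusted p = 0.0072) and -0.21 (SE 0.05, adjusted p = 0.002). Leaving out control replicate 2 or FIBP siRNA 6 replicate 2 ended the call with siRNA 6 (adjusted p = 0.058 and 0.17), and leaving out siRNA 7 replicate 1 that with siRNA 7 (0.053). With TMEM259 the changes of -0.11 and -0.12 did not pass.

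BARD1, the obligate partner of BRCA1, fell with SART1 siRNA 4 (-0.29), SARNP siRNA 9 (-0.33) and FIBP siRNA 7 (-0.52), each time with a single siRNA of the target. BRCA2, the mediator of strand exchange, rose with DDX39A siRNA 1 alone. It stood at 761 and 756 with that siRNA and 521 and 489 with siRNA 4, against 544 and 523 in controls. The change was 0.51 (SE 0.07, adjusted p = 3.4e-07) with siRNA 1, and the siRNAs differed by 0.59 (SE 0.07, adjusted p = 5.6e-09).

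Among the genes of strand exchange, XRCC3 and XRCC2 fell with both SART1 siRNAs. XRCC3 stood at 388 and 365 with siRNA 4 and 338 and 334 with siRNA 6, against 621 and 612 in controls. The knockdown libraries lay far below the controls and close to each other. The changes were -0.71 (SE 0.07, adjusted p = 2.1e-08) and -0.87 (SE 0.07, adjusted p = 5.8e-10), and among the 38 genes XRCC3 had the largest fall shared by both siRNAs of a target. Its exons share 45.3% of their bases with KLC1 on the opposite strand in GENCODE. Whether reads were counted by strand is not stated. It is therefore not known if reads of the shared bases were counted for XRCC3, for KLC1 or for neither. KLC1, like the other overlapping genes below looked up after the overlaps were seen, rose with both SART1 siRNAs (0.14 and 0.23).

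XRCC2 had 317 and 310.5 with SART1 siRNA 4 and 263 and 290.1 with siRNA 6, against 402 and 409.5 in controls. Again the groups did not overlap. The changes were -0.37 (SE 0.09, adjusted p = 0.00066) and -0.55 (SE 0.09, adjusted p = 4.9e-06). Both genes were also lower with a few siRNAs alone. XRCC2 fell with DDX39A siRNA 4 (-0.56) and TMEM259 siRNA 5 (-0.37), and XRCC3 with SARNP siRNA 3 (-0.45) and DDX39A siRNA 4 (-0.26). XRCC3 lost the DDX39A siRNA 4 call without control replicate 1 (adjusted p = 0.18). XRCC2 lost the TMEM259 siRNA 5 call without control replicate 1 (0.079), control replicate 2 (0.059) or its own replicate 1 (0.15).

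RAD51AP1, which stimulates strand invasion, went the other way with SART1. It rose by 0.26 (SE 0.05, adjusted p = 9.2e-05) with siRNA 4 and 0.35 (SE 0.05, adjusted p = 2e-06) with siRNA 6. It fell, in contrast, with SARNP siRNA 3 (-0.35), TMEM259 siRNA 5 (-0.43) and DDX39A siRNA 4 (-0.29), a single siRNA of each target. SARNP siRNA 9 (0.15) and DDX39A siRNA 1 (-0.01) did not pass. For RAD51AP1 the SARNP siRNAs differed by -0.50 (SE 0.07, adjusted p = 3.7e-08) and those of DDX39A by 0.28 (SE 0.07, adjusted p = 0.00057). RAD51C, which works in complexes with XRCC2 or XRCC3, was the gene raised with both SARNP siRNAs. RAD51C stood at 387 and 417 with siRNA 3 and 396 and 396 with siRNA 9, against 340.5 and 316 in controls. All 4 knockdown libraries exceeded both controls, with changes of 0.29 (SE 0.08, adjusted p = 0.0049) and 0.27 (SE 0.08, adjusted p = 0.006). Without control replicate 2 the adjusted p was 0.07 and 0.075, and without SARNP siRNA 3 replicate 2 it was 0.08 for siRNA 3. RAD54L, the motor protein of strand exchange, rose with DDX39A siRNA 1 (0.21) and fell with SART1 siRNA 6 (-0.20) and SARNP siRNA 9 (-0.15). The rise was lost without control replicate 1 (adjusted p = 0.052) or DDX39A siRNA 1 replicate 2 (0.11), and the SARNP siRNA 9 fall without any 1 of its 2 libraries or the 2 controls (0.061 to 0.19). RAD54L shares 18% of its exon bases with LRRC41 on the opposite strand. LRRC41 was higher with DDX39A siRNA 1 (0.26) and lower with SART1 siRNA 6 (-0.25), as RAD54L was, and had 0.05 with SARNP siRNA 9, which did not pass. It was also higher with DDX39A siRNA 4 (0.17) and SARNP siRNA 3 (0.16), where RAD54L was not called. The same held for both siRNAs of FIBP (0.28 and 0.39) and of TMEM259 (0.25 and 0.30). The part of shared reads was not tested.

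In the Fanconi core complex, both SART1 siRNAs lowered 4 of 7 genes (FANCL, FANCE, FANCA and FANCG), against 20% of all genes, and the median change of the 7 was -0.27 with siRNA 4 and -0.29 with siRNA 6, against -0.01 and 0.00 over all genes. FANCL is the ubiquitin ligase of the complex. It stood at 551 and 608 with siRNA 4 and 449.5 and 479 with siRNA 6, against 903 and 856 in controls. No library of either siRNA came near the controls, and siRNA 6 gave the lower pair. The changes were -0.60 (SE 0.07, adjusted p = 7.7e-08) and -0.92 (SE 0.07, adjusted p = 6.1e-11), with a difference between the siRNAs of 0.32 (SE 0.07, adjusted p = 0.00069).

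FANCE, the core subunit that contacts FANCD2, had 105 and 101 with SART1 siRNA 4 and 108 and 112 with siRNA 6, against 162 and 167 in controls. The groups did not overlap, and the changes were -0.67 (SE 0.13, adjusted p = 0.00011) and -0.57 (SE 0.13, adjusted p = 0.00049). FANCA fell, with changes of -0.36 (SE 0.05, adjusted p = 7.1e-07) and -0.40 (SE 0.05, adjusted p = 1.3e-07), and so did its partner FANCG, with -0.27 (SE 0.06, adjusted p = 0.00036) and -0.28 (SE 0.06, adjusted p = 0.00019). FANCL shares 26.7% of its exon bases with VRK2 and AC007250.1 on the opposite strand, and FANCA 22.4% with ZNF276. VRK2 also fell with both SART1 siRNAs (-0.14 and -0.19), while ZNF276 had changes of -0.15 and -0.12 that did not pass, and the part of shared reads in the results was not tested.

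**Figure D3:**
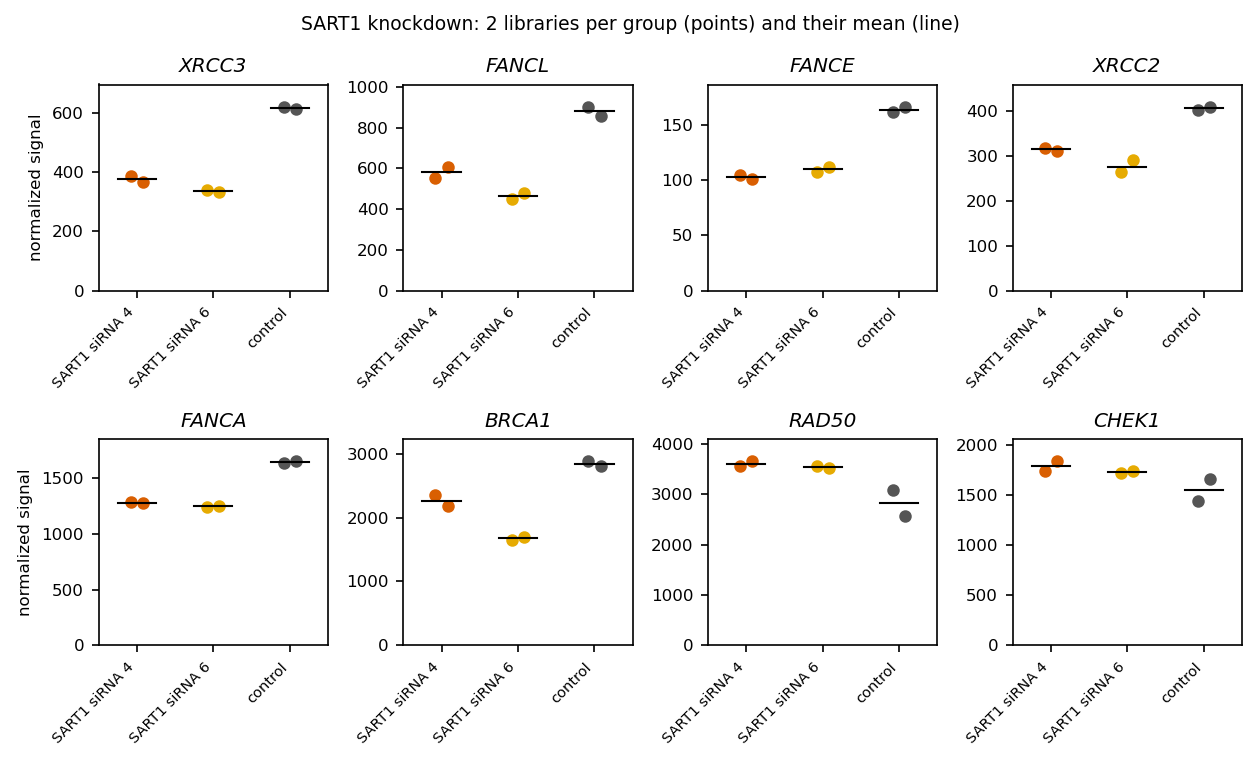
Normalized signal of 8 genes (6 lower and 2 higher) in each library with SART1 siRNA 4, SART1 siRNA 6 and control siRNA (points, 2 libraries per group, with the group mean as a line, axes from 0). In each panel both knockdown groups lie wholly below or wholly above the 2 control libraries.

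Of the other core genes, FANCC fell with siRNA 6 (-0.29) and had -0.07 with siRNA 4, FANCF rose with siRNA 6 (0.23), and FANCM had 0.04 and 0.02. The rise of FANCF was lost without either control library or either SART1 siRNA 6 library (adjusted p = 0.076 to 0.18). FANCC rose with FIBP siRNA 6 (0.39) and SARNP siRNA 3 (0.22), the second call being lost without either control or SARNP siRNA 3 replicate 2 (0.059 to 0.21). FANCF rose with DDX39A siRNA 4 (0.32), SARNP siRNA 9 (0.30) and FIBP siRNA 7 (0.39). These calls were lost without either control or DDX39A siRNA 4 replicate 2 (0.063 to 0.32), without either control or either SARNP siRNA 9 library (0.06 to 0.19), and without control replicate 1 or either FIBP siRNA 7 library (0.057 to 0.29). FANCM, the translocase that anchors the complex to DNA, was instead the gene with the largest fall shared by both DDX39A siRNAs. It had 129.8 and 141 with siRNA 1 and 144 and 121 with siRNA 4, against 157 and 217 in controls. The 2 controls were far apart, with replicate 2 the higher. The changes were -0.45 (SE 0.13, adjusted p = 0.009) and -0.48 (SE 0.13, adjusted p = 0.0033), but without control replicate 2 they were -0.21 and -0.25, with adjusted p of 0.34 and 0.22. Leaving out DDX39A siRNA 1 replicate 1 or siRNA 4 replicate 2 also ended a call (0.081 and 0.073). DDX39A siRNA 4 further lowered FANCE (-0.48) and FANCL (-0.30) and raised FANCA (0.24), with siRNA 1 at 0.11, 0.09 and 0.04. The fall of FANCE was lost without control replicate 1 (0.14) or DDX39A siRNA 4 replicate 1 (0.06), and that of FANCL without control replicate 2 (0.05). VRK2, which overlaps FANCL, fell with DDX39A siRNA 4 too (-0.48).

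FANCI, which the core complex ubiquitinates together with FANCD2, fell with both siRNAs of SART1, SARNP and FIBP. With SARNP it stood at 1357 and 1399 for siRNA 3 and 1392 and 1415 for siRNA 9, against 1842 and 1896 in controls. The 4 knockdown libraries lay together, well under both controls. The changes were -0.44 (SE 0.05, adjusted p = 3.1e-09) and -0.41 (SE 0.05, adjusted p = 5.6e-09), and the siRNAs differed by -0.03 (adjusted p = 0.65, 95% interval -0.13 to 0.07). With FIBP it had 1969 and 1859 for siRNA 6 and 1935 and 1885 for siRNA 7, against 2145 and 2105 in controls. All 4 libraries were below both controls. The changes were -0.15 (SE 0.05, adjusted p = 0.013) and -0.15 (SE 0.05, adjusted p = 0.0075), and without control replicate 1 neither passed (adjusted p = 0.11 and 0.071). Without FIBP siRNA 6 replicate 2 or siRNA 7 replicate 2 the adjusted p was 0.17 and 0.071. SART1 knockdown lowered FANCI, with changes of -0.27 with siRNA 4 and -0.34 with siRNA 6. FANCI shares 8.33% of its exon bases with POLG on the opposite strand, and POLG fell with SARNP siRNA 3 (-0.30) but had -0.11 with siRNA 9, where it did not pass.

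FANCD2 fell with SART1 siRNA 4 (-0.17), DDX39A siRNA 4 (-0.33) and FIBP siRNA 7 (-0.34) and rose with SARNP siRNA 3 (0.17), a rise lost without either control or either SARNP siRNA 3 library (adjusted p = 0.072 to 0.13). USP1, the enzyme that removes ubiquitin from FANCD2, split between the FIBP siRNAs. USP1 stood at 2960 and 2835 with siRNA 6 and 2451 and 2365 with siRNA 7, against 2675 and 2636 in controls, so that siRNA 6 lay above and siRNA 7 below them. The changes were 0.13 (SE 0.04, adjusted p = 0.029) and -0.14 (SE 0.04, adjusted p = 0.0085). The call with siRNA 6 ended without control replicate 1 (0.089), control replicate 2 (0.16) or its own replicate 1 (0.25), and that with siRNA 7 without control replicate 1 (0.072) or its replicate 2 (0.1). USP1 fell with DDX39A siRNA 4 (-0.36) and SARNP siRNA 9 (-0.18).

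BLM, the RecQ helicase that dissolves joined recombination intermediates, fell with both siRNAs of DDX39A, FIBP and TMEM259. With FIBP it had 457 and 426 for siRNA 6 and 424 and 439.5 for siRNA 7, and with TMEM259 445 and 427 for siRNA 5 and 457 and 432 for siRNA 6, against 547 and 522 in the controls shared by both targets. All 8 knockdown libraries were below both controls and overlapped each other. The FIBP changes were -0.27 (SE 0.08, adjusted p = 0.0059) and -0.31 (SE 0.08, adjusted p = 0.0013). Those of TMEM259 were -0.29 (SE 0.08, adjusted p = 0.0033) and -0.27 (SE 0.08, adjusted p = 0.0095). Because the controls are the same, control replicate 1 bears on both targets. Without it 3 of the 4 calls ended, with an adjusted p of 0.085 for FIBP siRNA 6, 0.063 for TMEM259 siRNA 5 and 0.11 for TMEM259 siRNA 6, and FIBP siRNA 7 kept its call (0.03). The call also ended without FIBP siRNA 6 replicate 2 (0.085) and without TMEM259 siRNA 6 replicate 2 (0.11) for those siRNAs.

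In the DDX39A and SARNP table, BLM stood at 437 and 486 with DDX39A siRNA 1 and 448 and 419 with siRNA 4, against 569.7 and 558 in controls, with no overlap. The changes were -0.29 (SE 0.08, adjusted p = 0.0025) and -0.38 (SE 0.08, adjusted p = 6.8e-05), and siRNA 1 lost its call without DDX39A siRNA 1 replicate 1 (adjusted p = 0.068). SARNP siRNA 9 lowered BLM (-0.45), with siRNA 3 at -0.15, which did not pass. In SART1 cells BLM had -0.08 and 0.05.

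BRIP1 (FANCJ), the helicase that binds BRCA1, fell with both FIBP siRNAs. It stood at 688 and 670.5 with siRNA 6 and 700 and 644 with siRNA 7, against 889 and 856 in controls. The knockdown and control libraries were well apart. The changes were -0.36 (SE 0.07, adjusted p = 4.7e-05) and -0.38 (SE 0.07, adjusted p = 1.3e-05), and both calls held without each library in turn. BRIP1 also fell with single siRNAs of the other targets. These were SART1 siRNA 4 (-0.31), DDX39A siRNA 1 (-0.25), SARNP siRNA 9 (-0.23) and TMEM259 siRNA 6 (-0.26). SART1 siRNA 6 (-0.02), SARNP siRNA 3 (-0.12) and DDX39A siRNA 4 (0.17) did not pass. The DDX39A siRNAs, with opposite signs, differed by -0.42 (SE 0.07, adjusted p = 1e-05). Calls were lost for DDX39A siRNA 1 without control replicate 2 (adjusted p = 0.065) or its replicate 1 (0.18), for SARNP siRNA 9 without control replicate 2 (0.056) or its replicate 1 (0.11), and for TMEM259 siRNA 6 without control replicate 1 (0.057) or its replicate 1 (0.21).

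**Figure D4:**
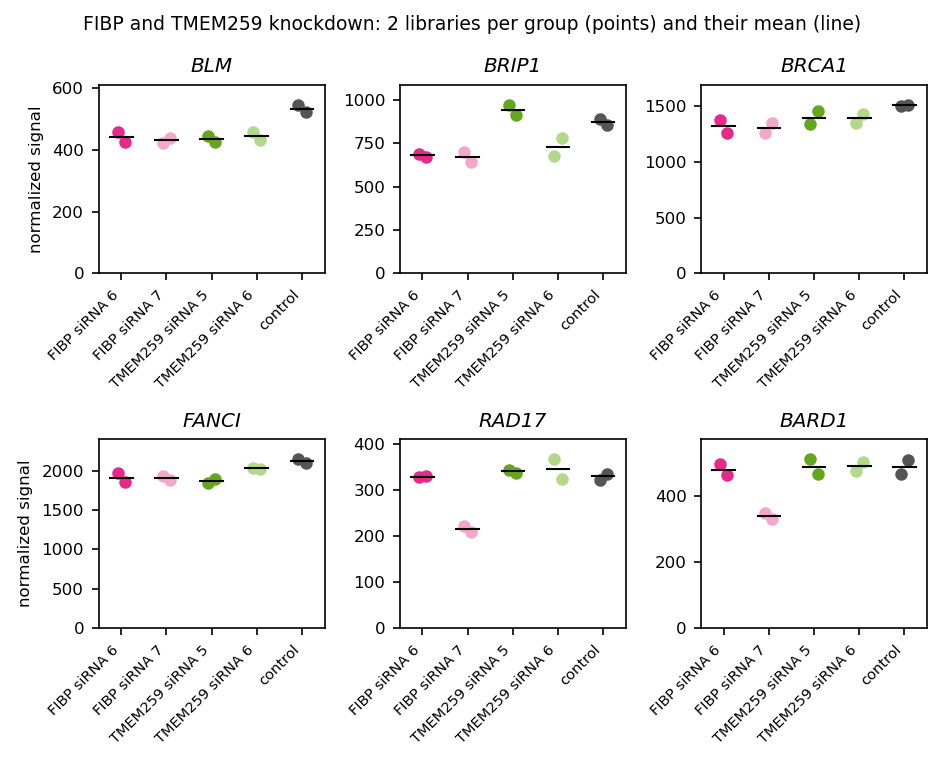
Normalized signal of 6 genes in each library with the FIBP siRNAs, the TMEM259 siRNAs and control siRNA (points, 2 libraries per group, with the group mean as a line, axes from 0). BLM lies below both controls with all 4 siRNAs, and RAD17 and BARD1 are low with FIBP siRNA 7 alone.

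In the group that senses and trims breaks, EXO1, the exonuclease of long-range resection, fell with both siRNAs of SART1 and DDX39A. EXO1 stood at 843 and 840 with DDX39A siRNA 1 and 931 and 896 with siRNA 4, against 1131 and 1210 in controls. The groups were clearly separate. The changes were -0.48 (SE 0.06, adjusted p = 1.8e-08) and -0.36 (SE 0.06, adjusted p = 1.8e-06), and with SART1 they were -0.33 (SE 0.05, adjusted p = 7.4e-06) and -0.45 (SE 0.05, adjusted p = 8.1e-08). These 4 calls held without each library in turn. With SARNP, EXO1 had -0.01 and 0.03, and SARNP exceeded DDX39A by 0.43 (SE 0.04, adjusted p = 1.3e-11) on the mean of both siRNAs.

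RBBP8 (CtIP), which starts resection with the MRN complex, fell with both SART1 siRNAs, with changes of -0.18 with siRNA 4 and -0.50 with siRNA 6, a difference of 0.32 (SE 0.05, adjusted p = 6.2e-06). Single siRNAs lowered it with SARNP siRNA 3 (-0.58) and DDX39A siRNA 4 (-0.38), and FIBP siRNA 6 raised it (0.19), a rise lost without control replicate 2 (adjusted p = 0.092) or FIBP siRNA 6 replicate 1 (0.063). RAD50, the ATPase of the MRN complex, rose with both SART1 siRNAs, with 3560 and 3657 for siRNA 4 and 3566 and 3522 for siRNA 6, against 3096 and 2579 in controls. The knockdown libraries lay close together and above controls that were well apart. The changes were 0.35 (SE 0.05, adjusted p = 5.9e-06) and 0.33 (SE 0.05, adjusted p = 1.3e-05). In GENCODE 90.6% of the exon bases of RAD50 lie within AC116366.3, a gene on the same strand. Whether the annotation used held that gene is not stated, so how reads of the shared bases were counted is not known.

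NBN, the subunit that brings the MRN complex and ATM to breaks, moved in opposite directions with the 2 SARNP siRNAs. It stood at 3043 and 2912 with siRNA 3 and 1149 and 1232 with siRNA 9, against 2160 and 2317 in controls. Both siRNA 3 libraries were above and both siRNA 9 libraries far below the controls. The changes were 0.41 (SE 0.05, adjusted p = 1.5e-08) and -0.91 (SE 0.05, adjusted p = 3.9e-18), and the siRNAs differed by 1.32 (SE 0.05, adjusted p = 2.3e-23). Leaving out any 1 library of these groups ended neither change.

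DDX39A gave rises of NBN with both siRNAs, with 2735 and 2747 for siRNA 1 and 2520 and 2363 for siRNA 4, against the same controls and above both. The changes were 0.29 (SE 0.05, adjusted p = 1.5e-05) and 0.13 (SE 0.05, adjusted p = 0.036), and the call with siRNA 4 ended without control replicate 1 (adjusted p = 0.35) or its own replicate 1 (0.31). FIBP siRNAs also parted, with 2507 and 2363 for siRNA 6 and 1964 and 1878 for siRNA 7, against 2095 and 2159 in controls. Here the changes were 0.19 (SE 0.05, adjusted p = 0.0014) and -0.15 (SE 0.05, adjusted p = 0.011). The adjusted p was 0.063 for siRNA 6 without its replicate 1, and for siRNA 7 0.12 without control replicate 2 and 0.13 without its replicate 2.

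**Figure D5:**
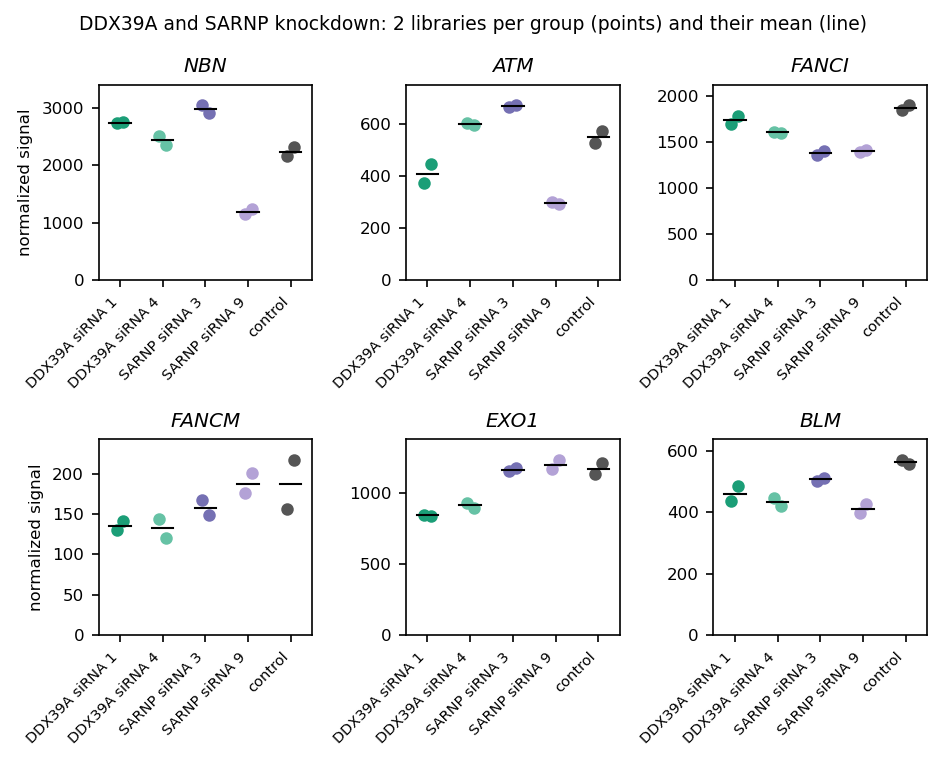
Normalized signal of 6 genes in each library with the DDX39A siRNAs, the SARNP siRNAs and control siRNA (points, 2 libraries per group, with the group mean as a line, axes from 0). NBN and ATM lie above both controls with SARNP siRNA 3 and below both with SARNP siRNA 9.

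Among the checkpoint genes, ATM also parted between the SARNP siRNAs. ATM, the kinase that answers broken ends, stood at 664 and 670.5 with SARNP siRNA 3 and 302 and 294 with siRNA 9, against 526 and 574 in controls. As for NBN, the siRNA 3 libraries were above and the siRNA 9 libraries far below the controls. The changes were 0.28 (SE 0.08, adjusted p = 0.0038) and -0.88 (SE 0.08, adjusted p = 2.9e-12), a difference of 1.16 (SE 0.08, adjusted p = 8.4e-16), and the rise with siRNA 3 was lost without control replicate 1 (adjusted p = 0.086).

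ATM fell with DDX39A siRNA 1 (-0.43), SART1 siRNA 6 (-0.25) and TMEM259 siRNA 6 (-0.46) and rose with FIBP siRNA 6 (0.29). With no target did both siRNAs pass the test in the same direction. DDX39A siRNA 4 (0.12) and SART1 siRNA 4 (0.18) had the opposite sign to their partners and did not pass. The siRNAs of a target differed by -0.56 for DDX39A (SE 0.08, adjusted p = 1.7e-07) and by 0.44 for SART1 (SE 0.08, adjusted p = 0.00015). With FIBP siRNA 7 it had 0.15, which did not pass, though both libraries were above both controls. Leaving out 1 library ended the calls of SART1 siRNA 6 (control replicate 1, adjusted p = 0.38, or its replicate 1, 0.083), TMEM259 siRNA 6 (its replicate 1, 0.082) and FIBP siRNA 6 (control replicate 2, 0.3, or its replicate 1, 0.2). CHEK2, the effector kinase below ATM, rose with SARNP siRNA 3 by 0.55 (SE 0.10, adjusted p = 3.4e-05) and had 0.03 with siRNA 9. It fell with SART1 siRNA 6 (-0.22), a call lost without control replicate 2 or SART1 siRNA 6 replicate 1 (adjusted p = 0.16 each).

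ATR, the kinase that answers stalled replication forks, fell with DDX39A siRNA 4 (-0.19) and rose with FIBP siRNA 6 (0.15), and its partner ATRIP fell with SARNP siRNA 9 (-0.27). ATR lost the DDX39A siRNA 4 call without that siRNA's replicate 2 (adjusted p = 0.079) and the FIBP siRNA 6 call without control replicate 2 or either FIBP siRNA 6 library (0.1 to 0.37). ATRIP lost its call without control replicate 1 or either SARNP siRNA 9 library (0.074 to 0.31). It shares 29.6% of its exon bases with TREX1 on the same strand, and TREX1 fell with SARNP siRNA 9 too (-0.37). TREX1 also fell with SART1 siRNA 4 (-0.34) and siRNA 6 (-0.64). It rose with DDX39A siRNA 4 (0.40) and SARNP siRNA 3 (0.42). ATRIP was not called with any of those siRNAs except SARNP siRNA 9. Its changes were -0.20 and -0.21 with the SART1 siRNAs, -0.20 with DDX39A siRNA 4 and -0.18 with SARNP siRNA 3. The part of shared reads was not tested. TOPBP1, the activator of ATR, and CHEK1, its effector kinase, rose with both SART1 siRNAs. TOPBP1 rose by 0.17 (SE 0.04, adjusted p = 0.00033) and 0.19 (SE 0.04, adjusted p = 0.00011). CHEK1 rose by 0.21 (SE 0.05, adjusted p = 0.0021) and 0.16 (SE 0.05, adjusted p = 0.013), with 1741 and 1835 for siRNA 4 and 1721 and 1740 for siRNA 6, against 1443 and 1658 in controls. Its controls were well apart, and without control replicate 1 the adjusted p was 0.14 for siRNA 4 and 0.4 for siRNA 6. The siRNA 6 call also ended without SART1 siRNA 6 replicate 2 (0.072). With DDX39A siRNA 4, both fell instead, with changes of -0.27 for TOPBP1 and -0.39 for CHEK1, while siRNA 1 gave -0.04 and 0.07. RAD17, which loads the 9-1-1 clamp, fell with FIBP siRNA 7 alone, with 222 and 208 against 323 and 336 in controls and a change of -0.62 (SE 0.09, adjusted p = 3.8e-07), while FIBP siRNA 6 gave 329.5 and 330.2.

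In chromatin ubiquitin signalling, RNF168, the ligase that extends ubiquitin chains on histone H2A, rose with both SART1 siRNAs. The changes were 0.49 (SE 0.08, adjusted p = 9.8e-06) and 0.25 (SE 0.08, adjusted p = 0.0073), and the second lost its call without control replicate 2 (adjusted p = 0.08) or SART1 siRNA 6 replicate 1 (0.19). RNF168 fell with DDX39A siRNA 4 (-0.50) and rose with SARNP siRNA 3 (0.24) and FIBP siRNA 7 (0.31). These rises were lost without either control replicate or siRNA 3 replicate 1 for SARNP siRNA 3 (0.07 to 0.33), and without control replicate 1 (0.38) or its replicate 1 (0.094) for FIBP siRNA 7. TP53BP1, a reader of ubiquitinated chromatin that favours end joining, rose with SART1 siRNA 4 (0.33) and FIBP siRNA 7 (0.20) and fell with DDX39A siRNA 4 (-0.25) and SARNP siRNA 9 (-0.32). Its FIBP siRNA 7 call was lost without control replicate 2 (0.12) or that siRNA's replicate 2 (0.067). Its exons overlap TUBGCP4 on the opposite strand over 28.9% of their bases, and TUBGCP4 fell with DDX39A siRNA 4 too (-0.46). TUBGCP4 also fell with DDX39A siRNA 1 (-0.26), where TP53BP1 had 0.08. It did not pass with SART1 siRNA 4 (0.14), SARNP siRNA 9 (0.03) or FIBP siRNA 7 (0.14), and the part of shared reads was not tested.

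RAD18, the ligase of PCNA, split between the SARNP siRNAs, with 688 and 617 for siRNA 3 and 851 and 883 for siRNA 9, against 747 and 742 in controls. The siRNA 3 libraries lay below and the siRNA 9 libraries above the controls. The changes were -0.19 (SE 0.06, adjusted p = 0.015) and 0.22 (SE 0.06, adjusted p = 0.0038). The fall with siRNA 3 was lost without control replicate 1 (0.073), control replicate 2 (0.058) or its own replicate 2 (0.28). RNF8, the ligase upstream of RNF168, rose with SART1 siRNA 4 (0.17) and SARNP siRNA 9 (0.24). The SART1 siRNA 4 call was lost without either control or its replicate 2 (0.057 to 0.092), and the SARNP siRNA 9 call without control replicate 2 (0.069) or its replicate 1 (0.06). MDC1 averaged 11.7 to 17 in the 3 control pairs and had changes of -0.70 to 0.53, none of which passed at that depth.

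Set directly against each other, the 2 siRNAs of a target differed in 11 of the 38 genes for SART1 (8 higher with siRNA 4, against 19.1% of all genes, and 3 lower, against 19.4%). For DDX39A they differed in 21 (18 higher with siRNA 1, against 25%, and 3 lower, against 25.6%). For SARNP they differed in 18 (11 higher with siRNA 3, against 32.5%, and 7 lower, against 31.7%). For FIBP it was 11 (10 higher with siRNA 6, against 17.7%, and 1 lower, against 17.9%), and for TMEM259 10 (4 higher with siRNA 5, against 15.6%, and 6 lower, against 16.5%).

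Between targets of a shared table, SARNP exceeded DDX39A in 12 of the 38, against 26.1% of all genes, and fell short in 8, against 27.5%, on the mean of both siRNAs. The largest differences upward were EXO1 (0.43), RAD51C (0.39), RNF168 (0.38) and FANCM (0.36), and downward NBN (-0.46), BRCA2 (-0.27) and FANCI (-0.26). The NBN difference averages SARNP siRNAs that moved in opposite directions, of which siRNA 3 (0.41) had a larger rise against controls than either DDX39A siRNA (0.29 and 0.13). For BRCA2 the DDX39A siRNAs themselves differed, with 0.51 with siRNA 1 and -0.08 with siRNA 4. The RNF168 difference averages SARNP siRNAs that differed, at 0.24 with siRNA 3 and -0.19 with siRNA 9, which did not pass. TMEM259 exceeded FIBP in 6, against 18.81%, and was below it in 6, against 18.3%. FANCE (0.42), RAD17 (0.37) and BRIP1 (0.29) led upward, and ATM (-0.36) downward. Against controls, FANCE was called with no siRNA of FIBP or TMEM259, and RAD17 with FIBP siRNA 7 alone (-0.62). ATM was called with a single siRNA of each target, FIBP siRNA 6 (0.29) and TMEM259 siRNA 6 (-0.46). The FANCE difference lost its call without FIBP siRNA 7 replicate 1 (adjusted p = 0.063) or TMEM259 siRNA 5 replicate 2 (0.058). For BLM neither difference passed, at 0.03 (95% interval -0.08 to 0.14) for SARNP minus DDX39A and 0.01 (95% interval -0.10 to 0.12) for TMEM259 minus FIBP. The first averages SARNP siRNAs that differed for BLM, at -0.15 with siRNA 3, which did not pass, and -0.45 with siRNA 9.

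The members of 4 further lists are given by counts, and MRE11 and PRKDC were picked after their values were seen. Of 47 other recombination, Fanconi and checkpoint genes, all tested, both SART1 siRNAs lowered 13 and raised 5 (15 and 2 under quantile normalization), against 20% and 22.9% of all genes, with medians of -0.11 and -0.20 (all genes -0.01 and 0.00). ABRAXAS1 of the BRCA1-A complex (-0.70 and -0.87 with siRNA 4 and siRNA 6), RMI2, a partner of BLM (-0.64 and -0.72), and the nuclease MUS81 (-0.56 and -0.58) fell most, and HUS1 of the 9-1-1 clamp (0.51 and 0.80) rose most. MRE11, the nuclease of the MRN complex, fell with both siRNAs of SART1 (-0.25 and -0.35), DDX39A (-0.35 and -0.34), FIBP (-0.33 and -0.34) and TMEM259 (-0.19 and -0.40), but its call with TMEM259 siRNA 5 was lost without any 1 of the controls or that siRNA's libraries (adjusted p = 0.083 to 0.16). In the same list both siRNAs lowered 3 and raised 1 with DDX39A (6.37% and 8.67% of all genes), lowered 6 and raised 1 with SARNP (7.15% and 7.17%), lowered 6 with FIBP (4.39%) and lowered 4 with TMEM259 (2.41%). With 1 library left out, the count lowered was 1 to 4 with DDX39A, with 1 without DDX39A siRNA 1 replicate 1, and 4 to 8 with SARNP. It was 3 to 7 with FIBP, with 3 without control replicate 1 or FIBP siRNA 7 replicate 2, and 0 to 2 with TMEM259, with 0 without control replicate 1 and 2 without any 1 of the others. The gene raised with DDX39A was lost without control replicate 1, DDX39A siRNA 1 replicate 1 or siRNA 4 replicate 1, and the count raised with SARNP was 0 without control replicate 1 or SARNP siRNA 9 replicate 1.

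Among 11 end joining genes, both SART1 siRNAs lowered 4, among them PAXX (-0.54 and -0.54) and POLL (-0.46 and -0.71), and raised 3, with LIG4 (0.46 and 0.34) highest. PRKDC, the DNA-dependent kinase of this route, fell with both siRNAs of SART1 (-0.16 and -0.08), DDX39A (-0.18 and -0.27), SARNP (-0.42 and -0.24) and FIBP (-0.16 and -0.12). Its call was lost for SART1 siRNA 6 without control replicate 1 or either own library (0.051 to 0.29), for FIBP siRNA 6 without its replicate 1 (0.051), and for FIBP siRNA 7 without control replicate 1 (0.13) or its replicate 2 (0.25). For all genes the shares with both SART1 siRNAs were 20% lower and 22.9% higher. With 1 library left out, the SART1 count was 2 to 4 lower, with 2 without control replicate 1, and 2 to 3 higher. Both siRNAs of DDX39A lowered 1 of the 11 (6.37% of all genes), those of SARNP lowered 2 and raised 1 (7.15% and 7.17%), and those of FIBP lowered 1 (4.39%). Without control replicate 1 or SARNP siRNA 3 replicate 2, SARNP lowered 1 and raised 0, and it raised 0 also without SARNP siRNA 3 replicate 1 or siRNA 9 replicate 2. FIBP lowered 0 without control replicate 1, FIBP siRNA 6 replicate 1 or FIBP siRNA 7 replicate 2.

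Of 40 genes of DNA replication and S phase, both siRNAs lowered 29 with SART1, 12 with DDX39A, 6 with SARNP, 14 with FIBP and 8 with TMEM259, against 20%, 6.37%, 7.15%, 4.39% and 2.41% of all genes for the same targets. With 1 library left out the count was 26 to 29 for SART1, 9 to 12 for DDX39A, 3 to 6 for SARNP, 8 to 13 for FIBP and 2 to 8 for TMEM259. It was 3 for SARNP without SARNP siRNA 3 replicate 1, and for FIBP 8 without FIBP siRNA 6 replicate 1 and 9 without control replicate 2. For TMEM259 it was 2 without control replicate 1, 5 without control replicate 2 and 4 without TMEM259 siRNA 6 replicate 1. Both siRNAs raised 2 with SART1 and 1 with DDX39A. The median changes were -0.29 and -0.28 with SART1, -0.06 and -0.34 with DDX39A siRNA 1 and siRNA 4, -0.01 and -0.26 with SARNP siRNA 3 and siRNA 9, -0.14 and -0.19 with FIBP, and -0.17 and -0.09 with TMEM259. E2F1, the transcription factor of S phase entry, fell with both siRNAs of SART1 (-0.87 and -0.95) and of FIBP (-0.39 and -0.33). With DDX39A (0.01 and -0.32), SARNP (-0.21 and 0.05) and TMEM259 (-0.35 and -0.03) only 1 siRNA lowered E2F1. Cyclin E1 (CCNE1) fell with both siRNAs of SART1 (-0.59 and -0.74) and DDX39A (-0.90 and -0.65). The same held for CCNE1 with FIBP (-0.71 and -0.36) and TMEM259 (-0.45 and -0.60). With SARNP, CCNE1 had -0.12, which did not pass, and -0.28. E2F2 fell more than either with SART1 (-0.90 and -1.04) and FIBP (-0.78 and -0.63), but had 0.33 and -1.28 with SARNP. Without control replicate 1 the CCNE1 call ended for FIBP siRNA 7 (0.13) and TMEM259 siRNA 5 (0.069), and for FIBP siRNA 7 also without its replicate 2 (0.16). Of 29 mitosis genes, both SART1 siRNAs raised 12, with TTK (0.43 and 0.66) first, and lowered 5, against 22.9% and 20% of all genes, a split that was 5 and 8 under quantile normalization. Both siRNAs lowered 3 of them with DDX39A (6.37% of all genes), 1 with SARNP (7.15%) and 4 with FIBP (4.39%), and raised 2 with SARNP (7.17%) and 1 with TMEM259 (2.56%). With 1 library left out, SART1 raised 9 to 12 and lowered 4 to 5, DDX39A lowered 2 to 3, FIBP lowered 2 to 4, with 2 without control replicate 1, and TMEM259 raised 0 without either control or either TMEM259 siRNA 5 library. The part of the cell cycle in the changes of the 38 genes was not tested.

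By level per kilobase of annotated exon in controls, USP1 and NBN were the highest of the 38 and MDC1 the lowest in every control library. Reads entered as not unique were left out of these levels, and their part in the low MDC1 signal was not tested. USP1 had 973 and 938 normalized signal per kilobase in the controls of the SART1 table, FANCI 758 and 731, BRCA1 368 and 359, ATM 34.5 and 27.7, and MDC1 2.54 and 1.75. Named pseudogenes exist for CHEK2 (4), RAD17 (2), FANCD2, RBBP8 and RAD51AP1 (1 each). Reads that fit a parent gene and its pseudogene may have been left out as not unique or counted for the wrong gene.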

How the data were processed

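Poly(A) RNA of 786-O cells was measured in 26 libraries of 13 groups. The authors deposited normalized signal per gene in 3 tables, and per the submitters' processing notes STAR, Picard, HTSeq and DESeq2 were used with build hg19. Their versions, the annotation and the strand setting are not given in the sources used here. In all 26 libraries, 100% of the deposited signal values came out as whole reads divided by a library's size factor, within 1e-04 of a read, and those reads gave the depth of each library. Entries that name no gene held 5.66 to 7.03% of reads (no feature), 1.33 to 1.65% (ambiguous) and 20.6 to 22% (not unique) in the 2 tables that list them, and were left out. No column was left unmapped to a sample.

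Each table was fitted in 1 model with limma 3.58.1 (R 4.3.3) on log2(signal + 1) for genes with a mean of at least 10, with a trend in the variance. Fold changes are on that scale, which understates those of low genes. P-values were two-sided and adjusted by Benjamini-Hochberg over all genes, and called below 0.05. The 95% intervals come from the same fits. edgeR 4.0.16 and DESeq2 1.42.0 on the recovered reads were alternatives. Tables were not compared with each other. The 38 genes and the other lists were chosen with earlier results of these data known. Genes called by both siRNAs of a target with the same sign were named with their statistics, at most 8 per target and direction in order of the smaller absolute change, with values per library for the first 4. Genes of the 38 whose siRNAs were called in opposite directions were also given per library. Further genes (BRCA2, RAD50, CHEK1, RAD17 and others) were given so after their values were seen. Exon lengths and overlaps were taken from GENCODE v29, and promoters from RefSeq, both on GRCh38. Replicate numbers were checked for pairing, by the correlation of deviations from the group means.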

Additional observations from a re-analysis of the deposited data

Results flagged for a closer look

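In 5 cases both siRNAs of a target changed a gene of the 38 in opposite directions, and the difference between the siRNAs passed the test. With SARNP, siRNA 3 exceeded siRNA 9 by 1.32 on the log2 scale for NBN (adjusted p = 2.3e-23) and by 1.16 for ATM (8.4e-16), and for RAD18 the difference was -0.41 (7.6e-07). With FIBP, siRNA 6 exceeded siRNA 7 by 0.34 for NBN (7.1e-08) and by 0.27 for USP1 (2.3e-06). In each case both libraries of one siRNA lay above, and both of the other below, the 2 controls. These 5 differences kept their call without each library in turn. SARNP mRNA was at 13.5% of control with siRNA 3 and 8.48% with siRNA 9, and FIBP mRNA at 11% with siRNA 6 and 17.1% with siRNA 7. The part of knockdown depth in the differences was not tested.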

How the results depend on the processing

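Alternatives comprised another pseudocount, filter, scaling, threshold and test, fits of the compared groups alone, the replicate number as a block, and leaving out each library. For genes called with a single siRNA, differences between siRNAs or targets and the other lists, they were chosen after seeing the data. Of 3649 alternative values over 239 called changes of the 38 genes, 369 lost the call, 228 of them among 1498 that left out 1 library, and 1 reversed (USP1 with SART1 siRNA 4, -0.01 under quantile normalization). Losses came to 64 in DESeq2, 53 at an adjusted p below 0.01 and 14 under quantile normalization. In the mitosis list CCNB2 and BIRC5 reversed with SART1 siRNA 6 under quantile normalization (-0.01 and -0.02).

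With both siRNAs of SART1, 3 of 5 genes were higher under quantile normalization. For DDX39A the 1 higher gene became 0 under quantile normalization, in DESeq2 and at an adjusted p below 0.01. For SARNP, the 1 higher gene became 2 in edgeR, 0 in DESeq2, 3 with the compared groups alone and 2 with the replicate block. DESeq2 gave 2 of 4 genes lower with both FIBP siRNAs, 0 of 1 with TMEM259, 7 of 12 called with SARNP siRNA 3, 6 of 11 with FIBP siRNA 6, 8 of 14 with FIBP siRNA 7 and 6 of 12 for TMEM259 minus FIBP. At an adjusted p below 0.01, FIBP siRNA 6 gave 6 and siRNA 7 gave 9. The cause of these shifts was not tested.

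Leaving out 1 library gave 4 to 5 higher and 10 to 11 lower for SART1, 0 to 1 and 1 to 4 for DDX39A, 0 to 1 and 1 to 1 for SARNP, 0 to 0 and 1 to 4 for FIBP, and 0 to 0 and 0 to 1 for TMEM259, each with both siRNAs. Calls per siRNA ranged from 19 to 23 and 16 to 23 (SART1 siRNA 4, siRNA 6), 5 to 9 and 18 to 25 (DDX39A siRNA 1, siRNA 4), 7 to 12 and 10 to 16 (SARNP siRNA 3, siRNA 9), 5 to 11 and 9 to 14 (FIBP siRNA 6, siRNA 7), and 2 to 6 and 1 to 3 (TMEM259 siRNA 5, siRNA 6). Differences numbered 17 to 20 for SARNP minus DDX39A and 8 to 12 for TMEM259 minus FIBP. Where an arm was left with 1 library, it was assumed to vary like the other groups. Libraries with the same replicate number did not deviate together (correlations -0.06 to 0.05). Counting error enters these deviations, so the check cannot exclude that the number pairs them. The replicate block ended 4 of the 239 calls. It raised the count higher with both SARNP siRNAs from 1 to 2 and moved no other count by over 1.5 times. Low read counts limit MDC1 most.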
